A study of Arabidopsis thaliana with 18 samples.

Results

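The 3p strands of the miR156 family were described in small RNA libraries from Arabidopsis thaliana seedlings, in total RNA and in RNA bound to ARGONAUTE1 (AGO1). Members were chosen by name as the miR156 rows of the deposited miRNA count table that carry the suffix 3p: miR156a-3p, miR156b-3p, miR156c-3p, miR156d-3p and miR156f-3p, 5 of 422 rows. All seedlings were 7-day-old Col-0 wild type, and the table held 18 libraries in 6 groups of 3. Seedlings were sampled after heat stress (HS) at 37 °C for 1 h, after HS followed by recovery at 22 °C for 2 h, or without HS (control). Each treatment gave AGO1-IP libraries, in which endogenous AGO1 and its small RNAs were pulled down with an anti-AGO1 antibody, and total RNA libraries. The study states in its results that both kinds came from the same biological replicates. Whole seedlings were used, so a level is an average over all their tissues.

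A plant miRNA is cut by DICER-LIKE1 from a hairpin precursor as a duplex of a guide strand, which AGO1 keeps and uses to find target mRNAs, and a passenger strand (miRNA*), which is usually removed. AGO proteins choose strands partly by the first base at the 5′ end, and AGO1 is known for favouring U. The miR156 guide, on the 5′ arm of its precursors, represses SPL transcription factor genes and keeps seedlings in the juvenile phase, and the 3p strands are its passengers.

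The member sequences are shown because the members differ at the first base, which AGO proteins sense, and in the seed. Each is the RefSeq TAIR10.1 sequence, 5′ to 3′, with bases 2 to 8 (the seed) in capitals, and the guide that the members pair with comes last.
miR156a-3p: gCUCACUGcucuuucugucaga
miR156b-3p: uGCUCACCucucuuucugucagu
miR156c-3p: gCUCACUGcucuaucugucaga
miR156d-3p: gCUCACUCucuuuuugucauaac
miR156f-3p: gCUCACUCucuauccgucacc
miR156a-5p (guide): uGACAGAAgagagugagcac

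Only miR156b-3p starts with U, and the other 4 members start with G. The miR156b-3p sequence has 1 extra base at the 5′ end, so that from its base 2 it shares its next 6 bases with the start of each other member. miR156a-3p and miR156c-3p share a seed, as do miR156d-3p and miR156f-3p. miR156a-3p and miR156c-3p differ at a single base, U13A, with positions counted from 1 at the 5′ end of miR156a-3p, so a read with 1 mismatch could be counted for either, and how the counting treated such reads is not given in the sources used here. Every other pair of members is at least 4 edits apart.

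In TAIR10.1, miR156a-3p (22 nt) lies at chr2:10676470-10676491 on the minus strand, in the precursor of MIR156a (AT2G25095), and the strand itself overlaps no other annotated gene. miR156b-3p (23 nt) lies at chr4:15075004-15075026 on the plus strand, in MIR156b (AT4G30972), and overlaps the non-coding RNA gene AT4G30975 of the same strand. miR156c-3p (22 nt) lies at chr4:15415426-15415447 on the minus strand, in MIR156c (AT4G31877), and itself overlaps no other gene. miR156d-3p (23 nt) lies at chr5:3456643-3456665 on the minus strand, in MIR156d (AT5G10945), and overlaps the protein-coding gene AT5G10946 of the same strand. miR156f-3p (21 nt) lies at chr5:9136197-9136217 on the plus strand, in MIR156f (AT5G26147), and overlaps the long non-coding RNA gene AT5G26146. Each member sequence has 1 exact match in the genome. The guide sequence has 6, and its reads stood in 6 rows (miR156a-5p to miR156d-5p, miR156e and miR156f-5p), the highest of which exceeded the lowest by at most 1.07 times in any library. Levels of the guide are therefore given here only as the sum of these 6 rows, while calls and fold changes are of single rows.

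The AGO1-IP libraries held 1374777 to 5745126 miRNA reads with 255 to 323 miRNAs detected, and the total RNA libraries held 321918 to 1059362 reads with 324 to 348 detected. Levels below are reads of a strand scaled to 1000000 miRNA reads of the same library (CPM), which are shares of the library and not amounts per cell. The miR156 guide took 17.2 to 46.3% of miRNA reads in AGO1-IP and 9.10 to 19.2% in total RNA. AGO1-IP recovery replicate 1, at 17.2%, stood apart from the other 8 AGO1-IP libraries, which were at 36.2 to 46.3%.

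The 5 strands together made up 622 to 1512 CPM in AGO1-IP and 2119 to 9379 CPM in total RNA, and miR156b-3p led in AGO1-IP but not in total RNA. In AGO1-IP, miR156b-3p accounted for 94.4 ± 2.02% of the members' reads in HS, 80.8 ± 14.2% in recovery and 85.8 ± 5.27% in control seedlings (mean ± SD, n = 3 each). In total RNA its share was 7.81 ± 2.92%, 6.75 ± 0.757% and 6.86 ± 1.33% in the same order of treatments. miR156f-3p led in total RNA of control seedlings with 64.0 ± 1.49% of the members' reads, and had 11.1 ± 3.90% of them in AGO1-IP of the same seedlings. The lowest share of miR156b-3p in any AGO1-IP library, 64.7%, was in recovery replicate 1, the library that stood apart. The plot of shares by library shows miR156b-3p in the lead in all 9 AGO1-IP libraries and in none of the total RNA libraries.

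**Figure D1:**
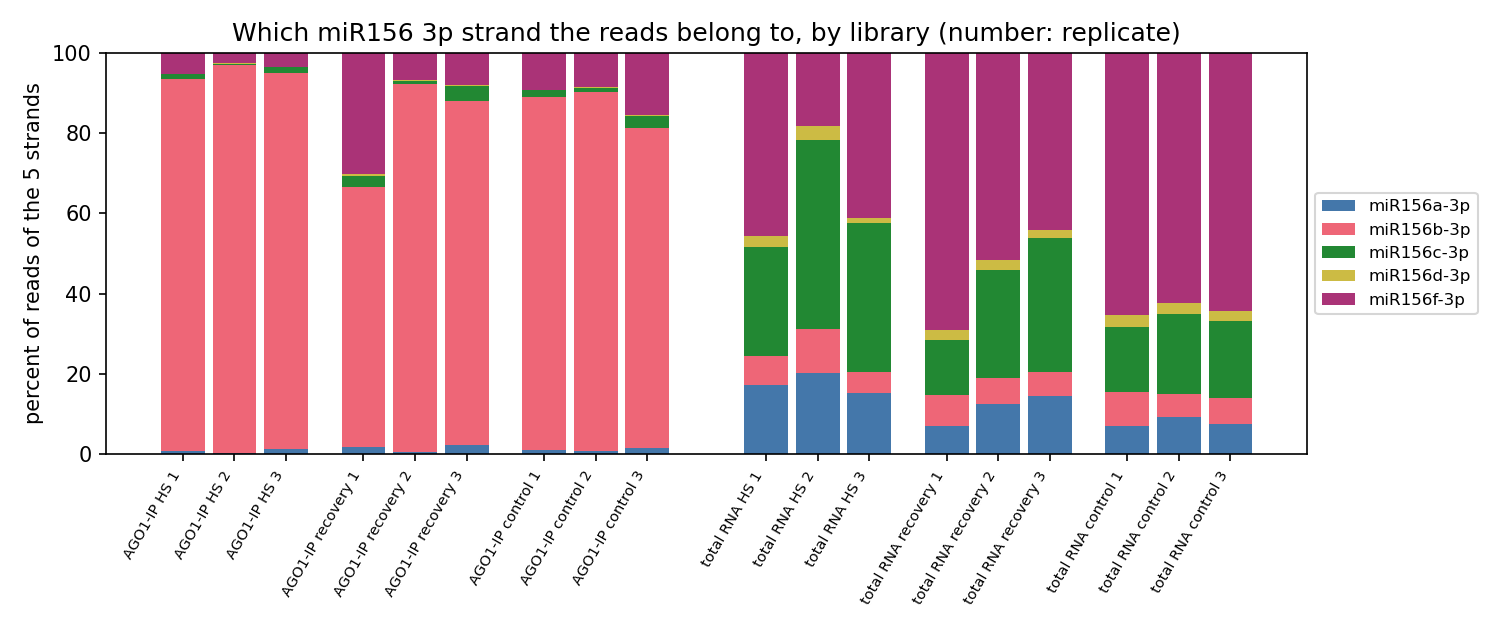
Stacked bars give, for each of the 18 libraries, the percent of reads of the 5 miR156 3p strands that belongs to each strand, with AGO1-IP libraries on the left and total RNA libraries on the right. miR156b-3p fills 64.7 to 96.6% of each AGO1-IP bar, and miR156f-3p is the largest part of the total RNA bars of control seedlings.

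miR156f-3p, from the MIR156f precursor, was the most abundant member in total RNA of control seedlings. It had 2833, 386 and 1866 CPM in total RNA of HS seedlings, 6486, 2629 and 2262 CPM in recovery and 5338, 3887 and 4236 CPM in control seedlings. HS replicate 2 was the lowest of the 9 libraries, recovery replicate 1 the highest, and the HS and control values did not overlap. In AGO1-IP it had 31.9, 35.4 and 34.9 CPM in HS, 255, 74.3 and 104 CPM in recovery and 105, 129 and 151 CPM in control seedlings. All 3 HS values were below every recovery and every control value, and recovery replicate 1 was again the highest.

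miR156c-3p was second in total RNA of control seedlings. It had 1693, 1002 and 1675 CPM in total RNA of HS seedlings, 1286, 1378 and 1708 CPM in recovery and 1331, 1243 and 1259 CPM in control seedlings, with overlapping groups. In AGO1-IP it had 7.87, 4.75 and 13.8 CPM in HS, 23.8, 9.34 and 46.8 CPM in recovery and 19.1, 13.5 and 29.2 CPM in control seedlings. Here too the groups overlapped.

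miR156a-3p, which differs from miR156c-3p at 1 base, had 1062, 429 and 694 CPM in total RNA of HS seedlings, 666, 630 and 741 CPM in recovery and 578, 572 and 495 CPM in control seedlings. All 3 recovery values were above the control values, and HS overlapped both. Its AGO1-IP levels were 4.95, 5.18 and 11.6 CPM in HS, 15.7, 5.65 and 29.0 CPM in recovery and 12.5, 10.4 and 14.1 CPM in control seedlings, again with overlap. Its reads stood at 0.429 ± 0.0337 of those of miR156c-3p in total RNA of control seedlings (SD, n = 3), and the ratio lay between 0.393 and 0.628 in the 9 total RNA libraries.

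miR156b-3p, the U-starting member, had 457, 232 and 233 CPM in total RNA of HS seedlings, 711, 333 and 314 CPM in recovery and 681, 360 and 427 CPM in control seedlings. In AGO1-IP it had 577, 1330 and 907 CPM in HS, 546, 1000.3 and 1105 CPM in recovery and 1012, 1355 and 776 CPM in control seedlings. The treatments overlapped in both library types. In control seedlings miR156a-3p and miR156b-3p overlapped in total RNA, so the order of these neighbours is not resolved by the spread between replicates. Within these libraries the ratio of miR156a-3p to miR156b-3p was 0.849, 1.59 and 1.16. In AGO1-IP, miR156c-3p and miR156a-3p follow miR156b-3p and miR156f-3p, and although their ranges overlap between control libraries, miR156a-3p was at 0.655, 0.773 and 0.484 of miR156c-3p within them and below it in every AGO1-IP library except HS replicate 2 (1.09).

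miR156d-3p was the least abundant member in every group. It had 165, 71.1 and 55.6 CPM in total RNA of HS seedlings, 230.4, 122 and 111 CPM in recovery and 239, 167 and 178 CPM in control seedlings. The HS and control values did not overlap, but the closest pair was 165 and 167 CPM. In AGO1-IP it rested on few reads: 2, 5 and 0 in HS, 7, 5 and 6 in recovery and 8, 11 and 5 in control seedlings. In CPM, the HS values lay below all control and all recovery values, the closest being 1.08 CPM in HS and 1.09 CPM in recovery. The 0 of 1374777 reads in HS replicate 3 allows a level of up to 2.18 CPM (3 reads, counting error only). Differences between treatments were therefore not resolved at this depth.

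**Figure D2:**
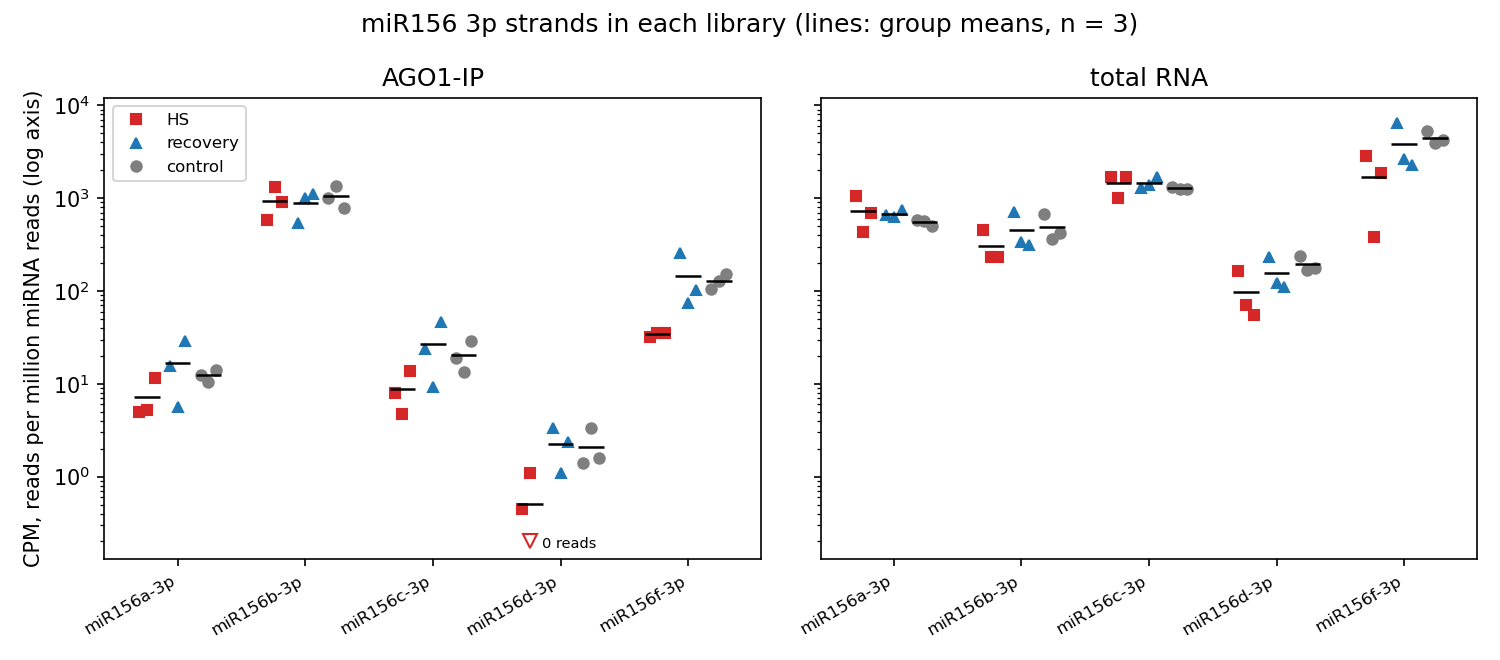
Points give each library's level of each miR156 3p strand in CPM on a log axis, AGO1-IP on the left and total RNA on the right, by treatment, and lines give group means (n = 3). miR156b-3p lies at 546 to 1355 CPM in AGO1-IP while the other strands reach at most 255 CPM there, and the open triangle marks the 0 reads of miR156d-3p in 1 HS library.

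The AGO1-IP libraries were compared with total RNA to ask which strands were more or less abundant among AGO1-bound miRNAs than among all miRNAs. miR156b-3p was higher in AGO1-IP and miR156a-3p, miR156c-3p, miR156d-3p and miR156f-3p were lower, in each of the 3 treatments. The log2 fold change of miR156b-3p (AGO1-IP over total RNA) was 3.22 ± 0.53 in HS, 2.53 ± 0.51 in recovery and 2.63 ± 0.51 in control seedlings (± SE, n = 3 against 3). The edgeR quasi-likelihood test with Benjamini-Hochberg adjustment gave it adjusted p = 1.87e-05, 0.000227 and 0.000157 in these treatments. Calls were common in these comparisons: 66.5% of the 269 miRNAs tested were called (adjusted p under 0.05) in HS, 63.9% in recovery and 65.4% in control seedlings, so that being called sets no member apart. No library of a mock pull-down was in the table, so RNA carried over without binding to AGO1 was not measured. Between treatments of these whole seedlings, fewer cells of a type and less RNA per cell cannot be told apart.

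The 4 G-starting members were lower in AGO1-IP by differing amounts. miR156c-3p had log2 fold changes of -5.88 ± 0.60 in HS, -4.44 ± 0.55 in recovery and -4.49 ± 0.55 in control seedlings, with adjusted p of at most 8.83e-07 in edgeR. miR156d-3p had -5.48 ± 0.70, -4.81 ± 0.64 and -5.0 ± 0.64 in the same treatments, on the few AGO1-IP reads given above. miR156a-3p had -5.14 ± 0.56, -4.01 ± 0.52 and -3.98 ± 0.52. miR156f-3p had the smallest decreases of these members, -4.03 ± 0.55, -3.51 ± 0.53 and -3.64 ± 0.53, with adjusted p of at most 8.01e-06 in edgeR. In plain CPM, the mean of miR156f-3p in AGO1-IP was 0.0201, 0.0381 and 0.0286 of that in total RNA in HS, recovery and control seedlings, and all AGO1-IP values of these 4 members lay below all total RNA values.

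The size of these fold changes depended on the scaling between the library types. The TMM factors, which rescale each library to a common set of miRNAs, were 0.464 to 1.07 in AGO1-IP and 1.49 to 1.88 in total RNA. The 1.07 was that of AGO1-IP recovery replicate 1, the library that stood apart, and the next highest AGO1-IP factor was 0.649. Scaling by library size alone moved the median log2 fold change of all miRNAs to -1.80 in HS, -1.43 in recovery and -1.39 in control seedlings, against -0.15, -0.16 and 0.09 with TMM. Under it miR156b-3p stayed higher, at 1.62, 0.97 and 1.10, but in recovery the edgeR call was lost (adjusted p = 0.0649), and there its AGO1-IP and total RNA values also overlapped in plain CPM. Relative to the median of all miRNAs in the same fit, miR156b-3p lay at 1.66 to 3.72 log2 units, and the other 4 members at -6.55 to -3.10, over the alternative scalings, filters and tests.

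Single libraries moved some of these values by over 1.5 times without changing a call. Without total RNA recovery replicate 1, the recovery values were 3.18 for miR156b-3p, -4.09 for miR156d-3p and -2.50 for miR156f-3p. Without AGO1-IP recovery replicate 3 they were -4.94 for miR156a-3p and -5.39 for miR156c-3p, and without AGO1-IP HS replicate 2 the HS value of miR156d-3p was -6.37.

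**Figure D3:**
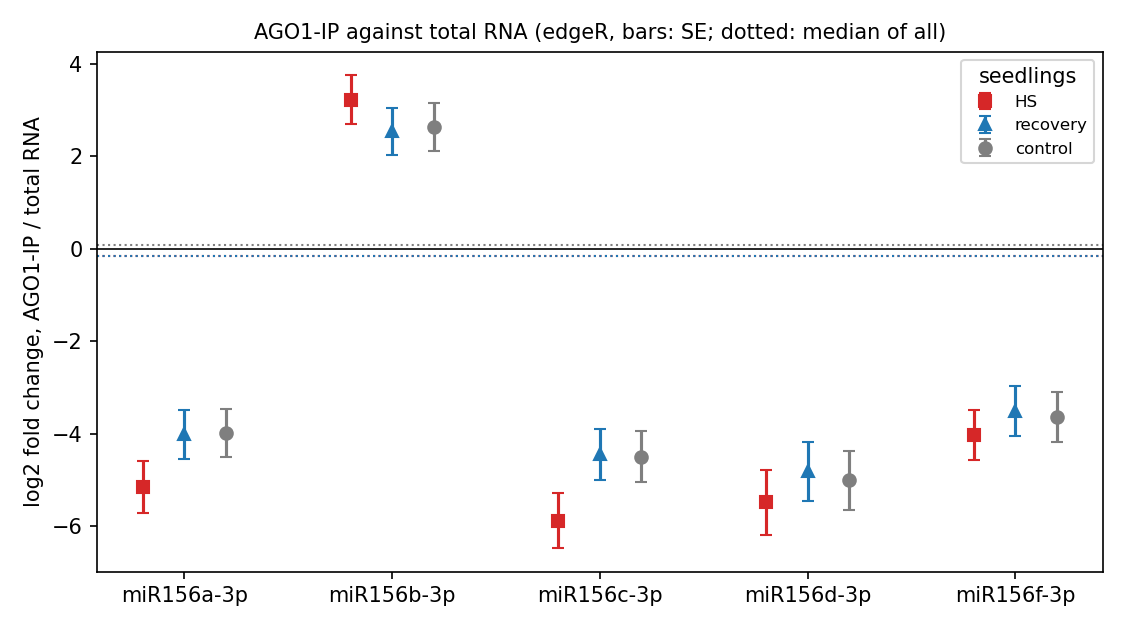
Points give the log2 fold change of each miR156 3p strand in AGO1-IP over total RNA with its standard error, by treatment, from edgeR, and dotted lines give the median over all 269 miRNAs tested. miR156b-3p lies at 2.53 to 3.22 and the other strands at -5.88 to -3.51.

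To compare members with each other without any scaling, the log2 ratio of 2 members within each library was set between AGO1-IP and total RNA over the 3 treatments, with an exact two-sided permutation test that exchanged library type within treatments (8000 assignments, smallest possible p = 0.00025) and adjustment over the 10 pairs. The ratio of miR156b-3p to miR156f-3p was 6.27 log2 units (77.2-fold) higher in AGO1-IP, that to miR156c-3p 7.74 units (213-fold) and that to miR156d-3p 7.81 units (225-fold) higher. The ratio of miR156a-3p to miR156b-3p was lower, with a difference of -7.15 units. Each of these 4 pairs had the smallest p the exact test can give, adjusted p = 0.0005. With library type exchanged only within same-numbered pairs (512 assignments, smallest possible p = 0.00391), the exact test gave each an adjusted p of 0.00558.

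Among the G-starting members the differences were smaller. Relative to miR156f-3p, the AGO1-IP minus total RNA difference was -1.54 log2 units for miR156d-3p (exact permutation test, adjusted p = 0.000833), -1.47 for miR156c-3p (adjusted p = 0.00536) and -0.87 for miR156a-3p (adjusted p = 0.03). The last of these missed the threshold without the pair of HS replicate 1 (adjusted p = 0.0531), HS replicate 2 (0.0685), recovery replicate 2 (0.157) or control replicate 2 (0.0531). miR156a-3p and miR156c-3p, 1 base apart, also differed: their ratio was 1.51-fold higher in AGO1-IP (exact permutation test, adjusted p = 0.0005). For miR156a-3p against miR156d-3p (0.67 units, adjusted p = 0.105) and miR156c-3p against miR156d-3p (0.08 units, adjusted p = 0.864) the exact test did not pass the threshold, which on 0 to 11 reads of miR156d-3p does not show that they behaved alike.

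Without the 5 members, the other miRNAs were grouped by their first base. The counts are of rows, and some rows share 1 sequence. Examples are the 6 guide rows named above (U) and miR166a-5p with miR166b-5p (G). Of 26 G-starting miRNAs, 0 were called higher in AGO1-IP in any treatment (edgeR), and 25 were called lower in HS, 24 in recovery and 21 in control seedlings, with median log2 fold changes of -4.53, -4.43 and -4.12. A start with A went with similar counts: of 56 such miRNAs 43, 38 and 37 were called lower and 2, 1 and 1 higher, with medians of -4.11, -3.31 and -3.42. The 28 C-starting miRNAs were more mixed, with 14, 14 and 13 called lower, 3, 9 and 9 higher and medians of -1.57, -1.71 and -1.31. Of 154 U-starting miRNAs, 74, 74 and 82 were called higher and 13, 7 and 8 lower, with medians of 1.09, 1.06 and 1.39. Low values in AGO1-IP were thus not particular to a G start, and the value of miR156b-3p stood above each of the medians of U-starting miRNAs. The G-starting miRNAs include passenger strands such as miR169f-3p and miR166a-5p, and the U-starting ones include guides such as miR156a-5p. First base and strand role are therefore partly confounded in these counts, and their parts were not tested.

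The other rows of the family gave the frame for the members. Of the 10 miR156 guide rows, 9 in HS, 10 in recovery and 10 in control seedlings were called higher in AGO1-IP, with median log2 fold changes of 3.38, 2.73 and 2.86, but 6 of these rows share 1 sequence. The closest relative of the family is miR157, which also targets SPL mRNAs. The 3 G-starting passengers of miR157 were called lower: in HS seedlings miR157a-3p had -4.44, miR157b-3p -4.43 and miR157c-3p -4.39, where the first 2 share 1 sequence. Its 4 guide rows, of which 3 share 1 sequence, were called higher in each treatment.

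Among 44 other passenger strands, 43 were tested, and 31 in HS, 29 in recovery and 27 in control seedlings were called lower in AGO1-IP, against 4 called higher in each. Their median log2 fold changes were -3.34, -3.77 and -3.59. Some of these rows also share 1 sequence, such as miR398b-5p and miR398c-5p. The most reduced in HS were miR169f-3p (-8.79), miR169a-3p (-7.80), miR172d-5p (-6.95) and miR169b-3p (-6.89). The 4 called higher were the same strands in the 3 treatments, miR167c-3p, miR173-3p, miR403-5p and miR408-5p, and were named after their values were seen. Of these, miR408-5p starts with A and the other 3 start with U, as miR156b-3p does. Their log2 fold changes in HS were 1.36, 2.61, 3.12 and 2.65.

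HS seedlings were compared with control seedlings to ask how the strands changed during heat. In AGO1-IP, miR156f-3p fell: its mean was 34.1 ± 1.88 CPM in HS and 129 ± 23.3 CPM in control seedlings (SD, n = 3 each), a log2 fold change of -1.86 ± 0.42 (edgeR, adjusted p = 0.0350). It was 1 of 4 miRNAs called among 215 tested (1.86%), all of them lower, and the others included miR157c-3p (-3.10) and the passenger strands miR159b-5p (-5.93) and miR167a-3p (-2.21). The call was near the threshold. It was lost without any 1 of the 6 HS and control libraries (edgeR, adjusted p = 0.0728 to 0.344) and under 4 of the other settings. DESeq2 gave adjusted p = 0.00966. Over all alternatives, adjusted p ran from 1.19e-05 to 0.344 (edgeR or DESeq2) and the log2 fold change from -1.98 to -1.65.

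Of the other members tested in AGO1-IP after HS, miR156a-3p had a log2 fold change of -0.80 ± 0.57, miR156b-3p -0.14 ± 0.42 and miR156c-3p -1.22 ± 0.59, with adjusted p of at least 0.817 in edgeR. miR156d-3p did not pass the filter on low counts and was not tested there, so 4 of the 5 members were tested. Their median was -1.01, against -0.11 over all 215 miRNAs. The 14 other G-starting miRNAs tested had a median of -1.20 with 3 called lower, and the 151 other U-starting miRNAs had a median of -0.07. All 4 miRNAs that edgeR called in this comparison start with G. None of the 10 guide rows was called, with a median of 0.01.

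In total RNA after HS, 0 of 229 miRNAs were called by edgeR (0%), 25 fell under 0.05 before adjustment, and DESeq2 called 1, which was no member. The members did not pass the test. miR156f-3p had a log2 fold change of -1.40 ± 0.60 and miR156d-3p -1.02 ± 0.43 (edgeR, adjusted p = 0.414 for both), and these 2 strands share a seed. miR156b-3p had -0.65 ± 0.41, miR156a-3p 0.40 ± 0.35 and miR156c-3p 0.20 ± 0.31. With the replicate number as a block, edgeR called 23 miRNAs, miR156d-3p among them (adjusted p = 0.0230). Correlations between same-numbered libraries ran from -0.00904 to 0.718 here, so the numbers do not clearly pair these libraries.

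Recovery was compared with HS to ask whether levels returned. In AGO1-IP, miR156f-3p averaged 144 ± 97.1 CPM in recovery and 34.1 ± 1.88 CPM in HS seedlings, with a log2 fold change of 1.83 ± 0.42 that missed the threshold (edgeR, adjusted p = 0.0679). The highest recovery value, 255 against 74.3 and 104 CPM, was that of replicate 1, the library that stood apart. With the replicate number as a block, adjusted p was 7.83e-05, and without recovery replicate 2 it was 0.00827. Correlations between same-numbered recovery and HS libraries ran from 0.396 to 0.593, but the block was fitted with the control libraries as well. The lowest same-numbered correlation with control was 0.0915 for HS and 0.0431 for recovery. The numbers therefore do not clearly pair all libraries of the block fit. Over all alternatives, adjusted p of miR156f-3p ran from 7.83e-05 to 0.295 (edgeR or DESeq2). miR156c-3p had 1.51 ± 0.59 (adjusted p = 0.549), with 0.0480 without recovery replicate 2 and up to 0.975 over the alternatives. miR156a-3p had 1.13 ± 0.57 and miR156b-3p -0.19 ± 0.42. In this comparison 0.465% of 215 miRNAs were called, namely miR157c-3p (2.28).

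In total RNA, recovery over HS gave miR156f-3p 1.08 ± 0.59, miR156d-3p 0.62 ± 0.43, miR156b-3p 0.48 ± 0.41, miR156c-3p -0.06 ± 0.31 and miR156a-3p -0.15 ± 0.35 on the log2 scale. By edgeR 0 of 229 miRNAs passed the test (0%), and by DESeq2 likewise 0, while 7 fell under 0.05 before adjustment. Every member was among those not called.

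Recovery was also set against control. In AGO1-IP the log2 fold changes were -0.02 ± 0.41 for miR156f-3p, 0.34 ± 0.55 for miR156a-3p, 0.29 ± 0.56 for miR156c-3p and -0.33 ± 0.42 for miR156b-3p, and only miR159b-5p was called (0.465% of 215). In total RNA they were -0.32 ± 0.58 for miR156f-3p, -0.40 ± 0.43 for miR156d-3p, -0.16 ± 0.40 for miR156b-3p, 0.14 ± 0.31 for miR156c-3p and 0.26 ± 0.35 for miR156a-3p. There 0 of 229 miRNAs were called by edgeR (0%), and by DESeq2 likewise 0, while 4 fell under 0.05 before adjustment. The 3 comparisons within a library type share libraries, so they are not independent of each other.

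**Figure D4:**
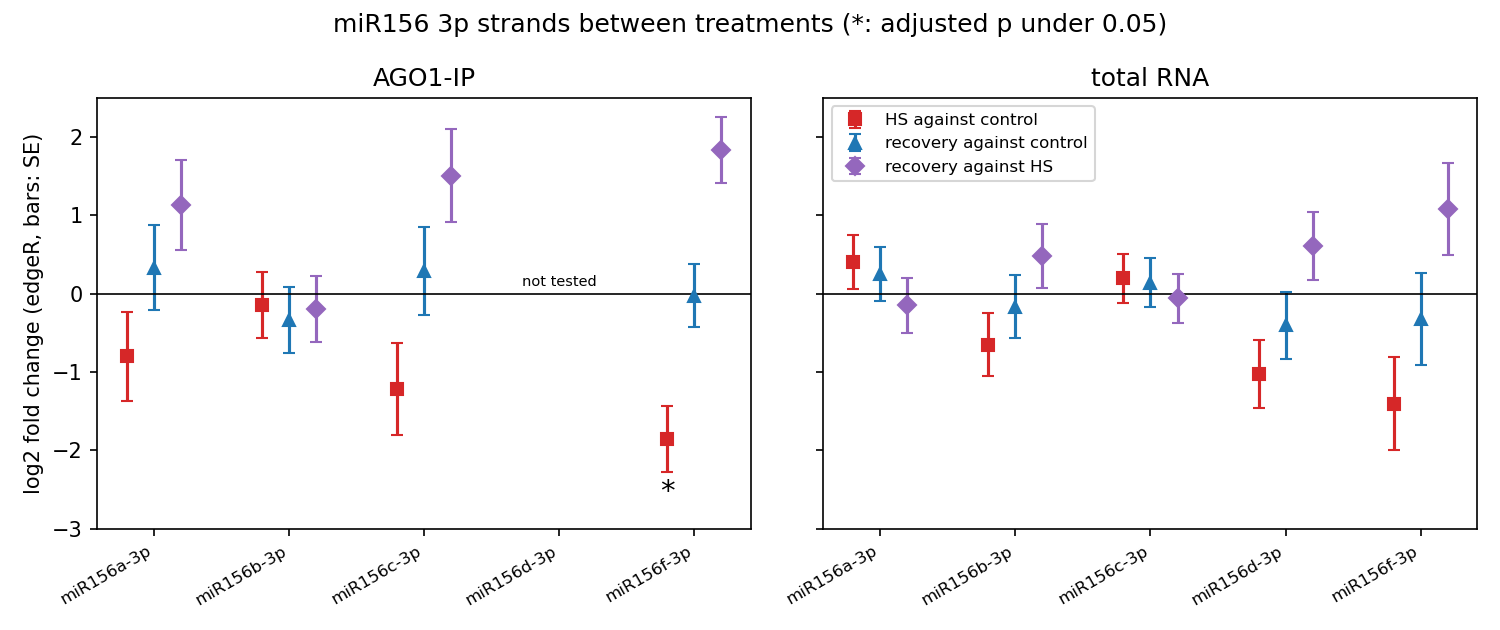
Points give the log2 fold change of each miR156 3p strand between treatments with its standard error, from edgeR, AGO1-IP on the left and total RNA on the right, and a star marks an adjusted p under 0.05. The star stands at miR156f-3p in HS against control AGO1-IP (-1.86), and miR156d-3p was not tested in AGO1-IP.

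The change in AGO1-IP relative to the change in total RNA, an interaction term in one model over all 18 libraries, was called for no member. For HS against control it was -0.39 ± 0.68 for miR156f-3p, -1.16 ± 0.67 for miR156a-3p, -1.39 ± 0.69 for miR156c-3p, -0.48 ± 0.81 for miR156d-3p and 0.59 ± 0.69 for miR156b-3p on the log2 scale (edgeR, adjusted p of at least 0.973). The test called 0.372% of 269 miRNAs, namely miR157c-3p (-2.35, adjusted p = 0.0101). The decrease of miR156f-3p was therefore called in AGO1-IP and not in total RNA, but the difference between both was not called.

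For recovery against control the interaction lay between -0.10 and 0.20 for the 5 members, and for recovery against HS it was 1.44 ± 0.69 for miR156c-3p, 1.13 ± 0.67 for miR156a-3p, 0.68 ± 0.85 for miR156d-3p, 0.52 ± 0.68 for miR156f-3p and -0.69 ± 0.69 for miR156b-3p. In each of these comparisons 0 of 269 miRNAs were called by edgeR (0%) and 0 by DESeq2. Before adjustment, p was under 0.05 for 6 miRNAs in recovery against control and for 7 in recovery against HS. No member was among them.

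Relative to their guide, the 3p strands were rare in AGO1-IP. Per 1000 guide reads, AGO1-IP libraries held 2.55 ± 0.987 reads of the 5 strands in HS, 3.43 ± 1.33 in recovery and 3.0 ± 0.806 in control seedlings (SD, n = 3 each). Total RNA libraries held 40.6 ± 24.8, 40.4 ± 10.5 and 46.7 ± 11.4 in the same treatments. The ranges over libraries, 1.5 to 4.91 in AGO1-IP and 20.5 to 68.2 in total RNA, did not overlap.

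The strands differed in this ratio. For miR156b-3p it was 2.42 ± 0.980 reads per 1000 guide reads in AGO1-IP and 2.99 ± 1.78 in total RNA of HS seedlings, and 2.6 ± 0.826 in AGO1-IP and 3.26 ± 1.32 in total RNA of control seedlings, with overlapping values. For miR156f-3p it was 0.0876 ± 0.00970 in AGO1-IP and 16.2 ± 13.9 in total RNA of HS seedlings, and 0.317 ± 0.0608 in AGO1-IP and 29.9 ± 7.59 in total RNA of control seedlings. In both treatments the values of miR156f-3p did not overlap between library types. In AGO1-IP of recovery seedlings miR156f-3p had 0.630 ± 0.743, where replicate 1, the library with the low guide share, gave 1.49.

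The miRNAs whose pattern was most like that of each member were found by the Pearson correlation of log2(CPM + 1), centred within each library type, over the 18 libraries with 222 candidates for each member that averaged 10 CPM or more. These are descriptions, since the points share libraries, treatments and depth. miR156a-3p and miR156c-3p were most like each other (r = 0.927), which is the pair that differs at 1 base. miR156f-3p was most like miR157b-3p (r = 0.875), miR157a-3p (0.873) and miR167a-3p (0.860). miR156d-3p was most like miR156f-3p (0.822), and miR156b-3p was most like miR168a-3p (0.773), miR391-5p (0.758) and miR775 (0.744).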

How the data were processed

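Per the labels and the study's methods, libraries were made with RealSeq v2 from 100 ng RNA with 15 PCR cycles, trimmed with cutadapt 2.9 and mapped with Bowtie2 to TAIR10. How reads with several matches, or of either strand, were counted is not given in the sources used here. In one table, the authors deposited raw read counts per miRNA (422 rows, 9 without a read, no unmapped columns). A deposited tasiRNA table was not used here.

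Fold changes came from edgeR 4.0.16 in R 4.3.3 (quasi-likelihood test, TMM, filterByExpr, adjusted p under 0.05). Comparisons within a library type used its 9 libraries, and AGO1-IP against total RNA and the interaction used all 18. Standard errors are the log2 fold change over the root of F. Member ratios used a pseudocount of 0.5 reads. Alternatives were RLE scaling (size factors of the kind DESeq2 uses), library size alone, other filters, DESeq2 1.42.0, other sample sets, a replicate block and leaving out each library. The fits were tested on simulated data.

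Named genes were all members in every comparison, called miR157 strands, up to 4 called miRNAs with the largest change of each other list and the 3 miRNAs most like each member. Members and lists were chosen with earlier results of these data known. Sequences and positions are from RefSeq TAIR10.1, in which all 422 rows were matched by name.

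Same-numbered libraries deviated together (correlations of deviations from group means above 0.1 in all 3 pairs) in recovery against HS for AGO1-IP (0.396 to 0.593) and total RNA (0.497 to 0.785), in recovery against control for total RNA (0.262 to 0.773) and in AGO1-IP against total RNA for control seedlings (0.128 to 0.290). Intervals and floors cover counting error only.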

Additional observations from a re-analysis of the deposited data

How the results depend on the processing

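With 3 libraries a group, and 0 to 11 reads of miR156d-3p per AGO1-IP library, small changes of the members were not detectable. All 5 members stayed called in AGO1-IP against total RNA under every alternative in which they were tested, except miR156b-3p in recovery with library size alone (0.97, adjusted p = 0.0649). miR156d-3p was dropped by the filter of a mean of at least 50 counts.

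After HS in AGO1-IP, 1 member was called, and 0 with RLE (miR156f-3p adjusted p = 0.0818), library size alone (0.0524), a mean of at least 50 counts (0.0598) or all 18 libraries in one fit (0.0847), and 0 to 0 without any 1 library. In recovery against HS in AGO1-IP, 0 members were called, and 1 (miR156f-3p) with RLE (0.0415), no filter (0.00133) or DESeq2 (0.0012), and 0 to 2 without 1 library. With the replicate block, 1 member was called after HS in total RNA (miR156d-3p, -1.14, adjusted p = 0.0230), where same-numbered correlations ran from -0.00904 to 0.718, and 1 in recovery against HS in AGO1-IP, and the block changed no other count of members called. It kept the 8 called pairs of members (adjusted p of at most 0.0146).

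Counts over all miRNAs moved as well. After HS in total RNA, 0 were called, against 23 with the block and 1 with RLE, library size alone, no filter, the 50-count filter and DESeq2. After HS in AGO1-IP, 4 were called, against 8 with the block. In recovery against control in AGO1-IP 1 was called, against 4 with only the groups compared, 5 with DESeq2, 6 with no filter and 7 with the block. In recovery against HS in AGO1-IP 1 was called, against 2 with all 18 libraries, 3 with RLE, 4 with DESeq2, 4 with the block and 6 with no filter. The interaction for HS against control called 1, against 2 with DESeq2 and 0 with RLE, library size alone, the 50-count filter and the block.

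Some uncalled log2 fold changes near 0 changed sign, and the cause was not tested. For miR156c-3p in recovery against HS in total RNA the value was 0.00067 with library size alone, 0.034 with no filter and 0.026 with only the groups compared. For miR156b-3p after HS in AGO1-IP it was 0.029 with RLE, 0.0022 with no filter and 0.029 with DESeq2. For miR156f-3p in recovery against control in AGO1-IP it was 0.29 with RLE and DESeq2, 0.17 with library size alone, 0.26 with no filter, 0.14 with the 50-count filter and 0.11 with only the groups compared. For the interaction in recovery against control, miR156a-3p had 0.14 with RLE and DESeq2, 0.12 with library size alone, 0.0087 with no filter and 0.26 with the 50-count filter, miR156b-3p had 0.11 with the 50-count filter, miR156c-3p had -0.046 with only the groups compared and -0.18 with the block, and miR156f-3p had -0.020 with only the groups compared. The ratio of miR156c-3p to miR156d-3p was -0.12 with a pseudocount of 1 read.

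Leaving out 1 library at a time also turned the sign of uncalled values near 0. The ranges of log2 fold changes and interactions given here are over all alternatives, with those fits included. In total RNA the ranges were -0.0056 to 0.25 for miR156c-3p after HS, -0.61 to 0.020 for miR156b-3p and -0.012 to 0.22 for miR156c-3p in recovery against control, and -0.28 to 0.14 for miR156a-3p and -0.19 to 0.13 for miR156c-3p in recovery against HS. In AGO1-IP they were -0.41 to 0.27 for miR156b-3p after HS, -0.26 to 0.91 for miR156a-3p, -0.39 to 0.19 for miR156b-3p, -0.36 to 0.84 for miR156c-3p and -0.35 to 0.55 for miR156f-3p in recovery against control, and -0.34 to 0.32 for miR156b-3p in recovery against HS. The interaction ran from -1.37 to 0.084 for miR156d-3p in HS against control. In recovery against control it ran from -0.95 to 0.31 for miR156a-3p, -0.56 to 0.44 for miR156b-3p, -0.89 to 0.39 for miR156c-3p, -0.19 to 0.80 for miR156d-3p and -0.35 to 1.0 for miR156f-3p. The ratio of miR156c-3p to miR156d-3p ran from -0.054 to 0.32 when the pair of libraries of 1 replicate was left out.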
